A study of Mus musculus with 2 samples.

Results

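The mitochondrial carriers of the SLC25 family are described here in the heart of 1 mouse. Members were all protein-coding genes listed in the gene tables of both libraries whose identifier maps to the symbol Slc25a followed by a number, which gave 47 carriers of 43346 Ensembl genes, 21474 of them protein-coding. The heart came from an adult female C57BL/6J mouse aged 10 weeks, with no treatment and no altered allele given in the labels. Its poly(A) RNA was sequenced in 2 libraries, labelled technical replicates 2 and 1 of 1 biological replicate, and replicate 2 was made later. There is no second animal and no second condition, so each comparison is between 2 libraries of 1 heart and any mean ± SD is technical spread (n = 2 libraries).

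SLC25 carriers are proteins of the inner mitochondrial membrane, encoded in the nucleus and imported from the cytosol. Each binds its substrate on one side and opens to the other side, and most exchange one metabolite for another. In heart muscle, whose work depends on oxidative phosphorylation, the family is best known for the ADP/ATP carriers, which send out ATP and take in ADP, the phosphate carrier, which brings in the other substrate of ATP synthase, the carnitine/acylcarnitine carrier, which admits fatty acids, and the carriers of the malate-aspartate shuttle, which moves reducing equivalents inward.

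The libraries stood apart. Replicate 2 held 19685821 counts and replicate 1 held 22775991, of which 12654724 in replicate 2 and 5028154 in replicate 1 came from nuclear genes other than near-identical copies of mitochondrial genes. Mitochondrial genes and those copies took 60.9% of TPM (an abundance per length, scaled to a fixed sum in each library) in replicate 2 and 92.8% in replicate 1, so other nuclear genes shared 39.1% and 7.22%, a 5.42-fold difference that enters every carrier's TPM. Nuclear TPM below is TPM rescaled to leave those genes out. The mean GC content of the nuclear counts was 50.5% in replicate 2 and 45.0% in replicate 1, and each result is given with both libraries. All 8 cardiomyocyte markers, such as Myl2 and Tnnt2, had at least 1 TPM in both libraries. Of the 5 markers of skeletal muscle, 0 reached that level in both libraries: Myh4 and Myh1 had 0 counts in both libraries and Myh2 had 1 count in each, while Acta1 had 75.5 TPM in replicate 2 and 0.17 in replicate 1, and Casq1 had 5.52 and 0.66.

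The sequences that bear on 2 of the results are those of the alternative exons of Slc25a3 and of the ADP/ATP carrier signature in Slc25a4 and Slc25a5. Slc25a3 (chromosome 10, 91116574 to 91124059, minus strand, GRCm38) encodes the phosphate carrier and holds a pair of alternative coding exons 163 bases apart. Exon A, at chr10:91122207-91122331, has 125 bases. Exon B, at chr10:91121922-91122043, has 122 bases. They are shown because they set the forms apart. The bases are those of the minus strand of GRCm38, with capitals where they differ from the other exon or have no partner in it. The share of each form was summed over the transcripts that hold its exon, not read from these bases alone. The exons were identical at 80 of 126 aligned positions (63.5%).

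Slc25a3 exon A: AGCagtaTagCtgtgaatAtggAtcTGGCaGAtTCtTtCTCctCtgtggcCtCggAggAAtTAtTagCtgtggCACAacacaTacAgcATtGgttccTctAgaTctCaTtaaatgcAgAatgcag

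Slc25a3 exon B: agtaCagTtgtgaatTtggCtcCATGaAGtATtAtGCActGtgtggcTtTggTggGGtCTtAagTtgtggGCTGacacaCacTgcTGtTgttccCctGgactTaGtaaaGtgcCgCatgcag

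Slc25a4 and Slc25a5 encode ADP/ATP carriers 1 and 2, the first known as the form of heart and skeletal muscle and the second found in many tissues. The codons of the signature motif that marks ADP/ATP carriers are shown in capitals with 18 bases on each side, at chr8:46208399-46208452 on the minus strand for Slc25a4 and at chrX:36797822-36797875 on the plus strand for Slc25a5 (GRCm38). They show how far reads of the pair can be told apart around this motif, which the proteins share.

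Slc25a4 signature codons: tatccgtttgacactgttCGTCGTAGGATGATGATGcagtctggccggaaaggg

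Slc25a5 signature codons: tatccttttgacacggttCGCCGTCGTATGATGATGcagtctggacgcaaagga

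Of these 54 bases 46 were identical, and 15 of the 18 in capitals. Over their whole coding sequences, 894 bases each, the genes were 77.4% identical, with no identical run longer than 20 bases.

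Of the 47 carriers, 42 had a count in replicate 2 and 38 in replicate 1. At least 1 TPM was reached by 38 carriers in replicate 2 and by 18 in replicate 1, and all 18 of replicate 1 were among the 38 of replicate 2. The 18 are 38.3% of the family, while 28.0% of all protein-coding genes reached that level in both. In nuclear TPM, 38 carriers in replicate 2 and 33 in replicate 1 reached 1, and 32 did so in both. At least 10 TPM was reached by 19 carriers in replicate 2 and by 8 in replicate 1. Summed over the family, TPM was 3754 in replicate 2 and 496 in replicate 1, and nuclear TPM was 9602 and 6869, which is 0.960% and 0.687% of nuclear RNA so scaled and a 1.40-fold difference.

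A few carriers held most of the family's RNA in both libraries. Slc25a4 and Slc25a3 together made up 73.9% of the summed carrier TPM in replicate 2 and 68.6% in replicate 1, and with Slc25a5 the shares were 78.8% and 76.4%. Slc25a4 (chromosome 8, 46206797 to 46211284) had 1917 TPM in replicate 2 and 156 in replicate 1 (mean 1037 ± 1245, SD, n = 2). It ranked 16 of 21461 nuclear protein-coding genes in replicate 2 and 46 in replicate 1. Slc25a3 had 857 TPM in replicate 2 and 184 in replicate 1 (mean 520.2 ± 476), and ranked 51 and 32. The order of the leading pair therefore differed between libraries: Slc25a4 came first in replicate 2 and Slc25a3 in replicate 1. In a bulk sample, fewer cells of a type and less RNA per cell cannot be told apart, so these levels are of the whole tissue.

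The next carriers by mean TPM were Slc25a11, Slc25a5 and Slc25a20. Slc25a11, the oxoglutarate carrier of that shuttle (chromosome 11, 70644196 to 70647479), had 245 TPM in replicate 2 and 11.1 in replicate 1 (mean 128 ± 166.) Slc25a5 (chromosome X, 36795651 to 36798807) had 185 TPM in replicate 2 and 38.4 in replicate 1 (mean 112 ± 103.) Slc25a20, the carnitine/acylcarnitine carrier (chromosome 9, 108662088 to 108684641), had 78.5 TPM in replicate 2 and 19.0 in replicate 1 (mean 48.8 ± 42.1), and was the fifth carrier in each library. Slc25a11 had rank 3 in replicate 2 but rank 8 in replicate 1, behind the carriers Slc25a13, Slc25a46 and Slc25a36 among others. In TPM, Slc25a11, Slc25a5 and Slc25a20 were all higher in replicate 2. In nuclear TPM Slc25a11 was higher there, with 627 against 153 in replicate 1, but Slc25a5, with 472 against 532, and Slc25a20, with 201 against 263, were lower.

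The other carriers among the 12 highest by mean TPM differed between libraries to very unequal degrees. Slc25a34 had 68.6 TPM in replicate 2 and 0.36 in replicate 1, on 3293 and 29 counts. Slc25a39, a glutathione carrier, had 56.1 TPM in replicate 2 and 0.68 in replicate 1. Slc25a23, a calcium-regulated carrier that exchanges ATP-Mg for phosphate, had 24.95 TPM in replicate 2 and 0.69 in replicate 1. These 3 carriers were below 1 TPM in replicate 1 (though Slc25a39 had a posterior mean of 1.37 TPM there) although all were among the 10 highest of replicate 2. Slc25a12 and Slc25a13, the calcium-regulated aspartate/glutamate carriers 1 and 2 of the malate-aspartate shuttle, moved apart: Slc25a12 had 58.4 TPM in replicate 2 and 3.80 in replicate 1, and Slc25a13 had 37.5 in replicate 2 and 21.4 in replicate 1. Slc25a46, an outer membrane protein of mitochondrial shape (chromosome 18), had 16.2 TPM in replicate 2 and 16.7 in replicate 1, and Slc25a36, a pyrimidine nucleotide carrier, had 16.1 and 14.2. In nuclear TPM, however, Slc25a46 was far lower in replicate 2, with 41.5 against 231 in replicate 1, and so was Slc25a36, with 41.2 against 196.

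**Figure D1:**
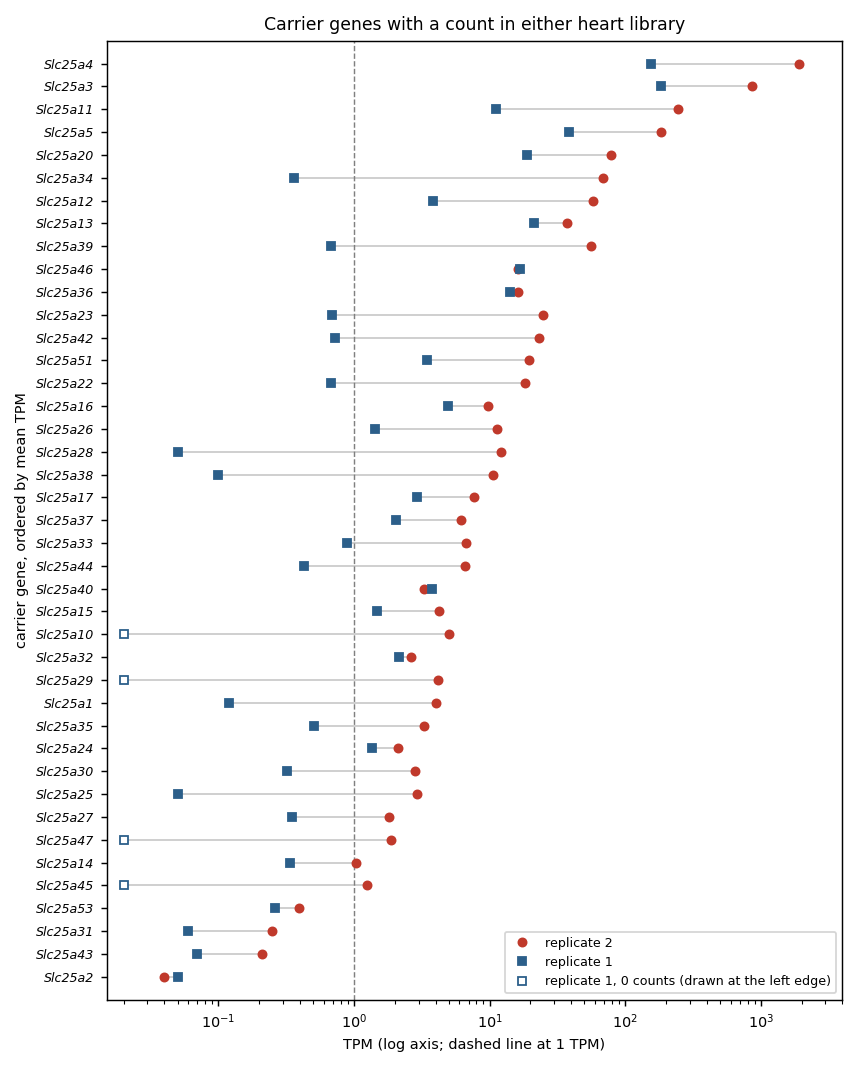
TPM (log axis) of 41 of the 42 carriers with a count in either library, from highest to lowest mean; red circles are replicate 2, blue squares replicate 1, open squares 0 counts in replicate 1, and the dashed line is 1 TPM. 38 of these 41 lie further right in replicate 2, and the exceptions are Slc25a46, Slc25a40 and Slc25a2. In nuclear TPM, 23 of all 42 were higher in replicate 2 and 19 lower.

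The rank of a carrier was only partly shared between the libraries. Of the 12 highest carriers of each library 7 were the same. Of the 11 steps from one carrier to the next in the order of mean TPM, 4 ran the same way in both libraries: Slc25a3 above Slc25a11, Slc25a5 above Slc25a20, Slc25a20 above Slc25a34 and Slc25a46 above Slc25a36. The last of these differed by only 0.01 in log2(TPM + 0.1) in replicate 2 and by 0.23 in replicate 1. Across the 42 carriers with a count in either library, log2(TPM + 0.1) in replicate 2 and in replicate 1 had a Pearson r of 0.75 and a Spearman rho of 0.67, as a description over genes that share both libraries. Over the 15811 nuclear protein-coding genes with a count, both coefficients were 0.75.

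Grouped by substrate, carriers of nucleotides and phosphate led in both libraries with nearly the same share. The sum over these 10 genes was 3011 TPM in replicate 2, against 396 in replicate 1, or 80.2% and 79.8% of the family's TPM. The 4 carriers of organic acids had 6.77% in replicate 2 and 2.26% in replicate 1, nearly all of it Slc25a11. The 9 amino acid carriers had 3.73% in replicate 2 and 5.64% in replicate 1. The 10 carriers of acylcarnitine, cofactors and glutathione had 6.20% and 8.05%, and 7 of these 10 reached 1 TPM in both libraries, more than in any other group. The 2 iron carriers, the mitoferrins, had 0.489% and 0.422%.

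Cofactor carriers lay in the middle of the range. Slc25a42, the coenzyme A carrier, had 23.2 TPM in replicate 2 and 0.73 in replicate 1. Slc25a51, the NAD carrier, had 19.5 TPM in replicate 2 and 3.47 in replicate 1, and Slc25a26, which brings in S-adenosylmethionine, had 11.3 and 1.43. The levels of Slc25a51 were close in nuclear TPM, 49.95 in replicate 2 and 48.1 in replicate 1, whereas those of Slc25a42 were 59.3 and 10.1. Slc25a32, the carrier of folate and FAD, had 2.64 TPM in replicate 2 and 2.16 in replicate 1. Slc25a17, the peroxisomal carrier of coenzyme A and adenine nucleotides, had 7.69 and 2.92, so a member outside mitochondria was also found in both libraries.

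Amino acid carriers other than Slc25a12 and Slc25a13 were lower. Slc25a22, glutamate carrier 1, had 18.3 TPM in replicate 2 and 0.68 in replicate 1. Slc25a38, the glycine carrier needed for heme synthesis, had 10.7 TPM in replicate 2 and 0.10 in replicate 1. Slc25a44, the carrier of branched-chain amino acids, had 6.61 and 0.43, and Slc25a15, ornithine carrier 1, had 4.26 and 1.48. Each of the 4 reached 1 TPM in replicate 2, and of the 4 only Slc25a15 did so in replicate 1, or Slc25a15 and Slc25a22 by posterior mean TPM, in which Slc25a22 had 4.65 there on 11 counts. Of organic acid carriers other than Slc25a11, Slc25a1, the citrate carrier, had 4.06 TPM in replicate 2 and 0.12 in replicate 1 on 117 and 2 counts, and Slc25a10, the dicarboxylate carrier, had 5.02 TPM in replicate 2 and 0 counts in replicate 1.

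Markers of red cells moved with the libraries: the TPM of the 5 erythroid genes, hemoglobin genes and Alas2, added up to 5027 in replicate 2 and 72.2 in replicate 1, and 3 of 5 had at least 1 TPM in both. Slc25a38 and the mitoferrin Slc25a37 are known from red cell precursors, and the part of such cells in their values was not tested. Slc25a37 had 6.16 TPM in replicate 2 and 2.04 in replicate 1, and mitoferrin 2, Slc25a28, had 12.2 and 0.05. The sum of macrophage markers was 68.4 TPM in replicate 2 against 1.25 in replicate 1, with 0 of 5 at 1 TPM in both.

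The calcium-regulated ATP-Mg/phosphate carriers beside Slc25a23 and the second pyrimidine nucleotide carrier were low. Slc25a24 had 2.10 TPM in replicate 2 and 1.37 in replicate 1, and Slc25a25 had 2.93 and 0.05. Slc25a33, which like Slc25a36 carries pyrimidine nucleotides, had 6.73 TPM in replicate 2 and 0.89 in replicate 1. Slc25a24 was thus the only one of the 3 at 1 TPM in both libraries. Slc25a16, linked to coenzyme A, had 9.69 TPM in replicate 2 and 4.94 in replicate 1, and the glutathione carrier Slc25a40 had 3.27 and 3.74. Among carriers related to uncoupling proteins, Slc25a30 had 2.83 TPM in replicate 2 and 0.32 in replicate 1, Slc25a27 had 1.82 and 0.35, and Slc25a14 had 1.04 and 0.34. All 3 lay above 1 TPM in replicate 2 and below it in replicate 1, as did Slc25a35 with 3.29 and 0.51. Slc25a53, with 0.39 TPM in replicate 2 and 0.26 in replicate 1, was below 1 TPM in both, but its deposited posterior mean TPM was above that level, with 2.60 and 1.59.

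No reads of 5 carriers were counted in either library: Slc25a18 (glutamate carrier 2), Slc25a21 (the oxodicarboxylate carrier), Slc25a41 (an ATP-Mg/phosphate carrier without the calcium-binding part), Slc25a48 and Slc25a54. With up to 3 counts allowed by a count of 0, these levels lie at or below 0.0487 TPM (Slc25a48) to 0.154 TPM (Slc25a41) in replicate 2 and 0.0290 to 0.0914 TPM for the same genes in replicate 1. Another 4 had 0 counts in replicate 1 alone. In replicate 2, Slc25a10 had 172 counts, Slc25a29, a basic amino acid carrier, had 131 (4.19 TPM), Slc25a45 had 53 (1.25 TPM) and Slc25a47, known from liver, had 50 (1.86 TPM). The liver markers Alb, Apoa1, Ttr and Otc added up to 26.6 TPM in replicate 2, against 2.43 in replicate 1. The lowest carriers with a count were Slc25a31, ADP/ATP carrier 4 of male germ cells, with 7 counts in replicate 2 and 3 in replicate 1, Slc25a43 with 4 and 2, and Slc25a2, ornithine carrier 2, with 1 and 2.

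Several low or undetected carriers lie beside a more abundant one in the genome. Slc25a41 lies 2056 bases from Slc25a23 on chromosome 17, on the same strand, and had 0 counts in both libraries. Slc25a54, also without counts, lies 6461 bases from Slc25a24 on chromosome 3, and Slc25a43 lies 18448 bases from Slc25a5 on chromosome X. Slc25a29 and Slc25a47 stand 162 bases apart on opposite strands of chromosome 12, and both had counts in replicate 2 and none in replicate 1. Neighbours could thus differ widely in level, as Slc25a5 had 3732 counts in replicate 2 and 1302 in replicate 1 beside the 4 and 2 of Slc25a43.

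Most Slc25a3 RNA had exon A, in both libraries. Its exon A form is the one known from heart and skeletal muscle, and its exon B form is found in most tissues. The transcript Slc25a3-206, with exon A, held 92.1% of the gene's abundance in replicate 2 and 73.0% in replicate 1 (IsoPct, the deposited percent of a gene's abundance per transcript). Slc25a3-201, with exon B, held 3.73% in replicate 2 and 20.6% in replicate 1. Of the sum of both forms, exon A took 95.8% in replicate 2 and 78.0% in replicate 1 (mean 86.9% ± 12.5, SD, n = 2). The shares rest on 17621 and 959 expected counts of exon A and exon B transcripts in replicate 2 and on 5031 and 1748 in replicate 1. The transcripts also differ at their ends. Counted in bases from the start of the gene, Slc25a3-201 runs from 0 to 7485 and Slc25a3-206 from 56 to 7267. The part of these ends in the shares was not tested.

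The exon A form was the higher one 22.5-fold in replicate 2 against 3.55-fold in replicate 1. Exon A transcripts added up to 790.5 TPM in replicate 2 against 134 in replicate 1, while exon B transcripts added up to 35.1 against 37.8. In nuclear TPM the exon A form was 2022 and 1862, and the exon B form 89.8 and 524. The libraries were therefore close in the exon A form and differed in the exon B form on that scale. The GC content of Slc25a3-206 was 50.2% and that of Slc25a3-201 was 48.4%, and the part of GC content in the shares was not tested.

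The other transcripts of Slc25a3 were minor. Slc25a3-208, annotated as a retained intron and running across both exons, held 1.64% in replicate 2 and 4.76% in replicate 1, and its GC content of 43.6% was the lowest of the 8 transcripts. Slc25a3-204, also a retained intron, held 1.36% and 1.26%. The remaining 4 transcripts were each below 1% in both libraries, among them Slc25a3-203, the other exon B transcript, with 0.37% in replicate 2 and 0% in replicate 1.

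**Figure D2:**
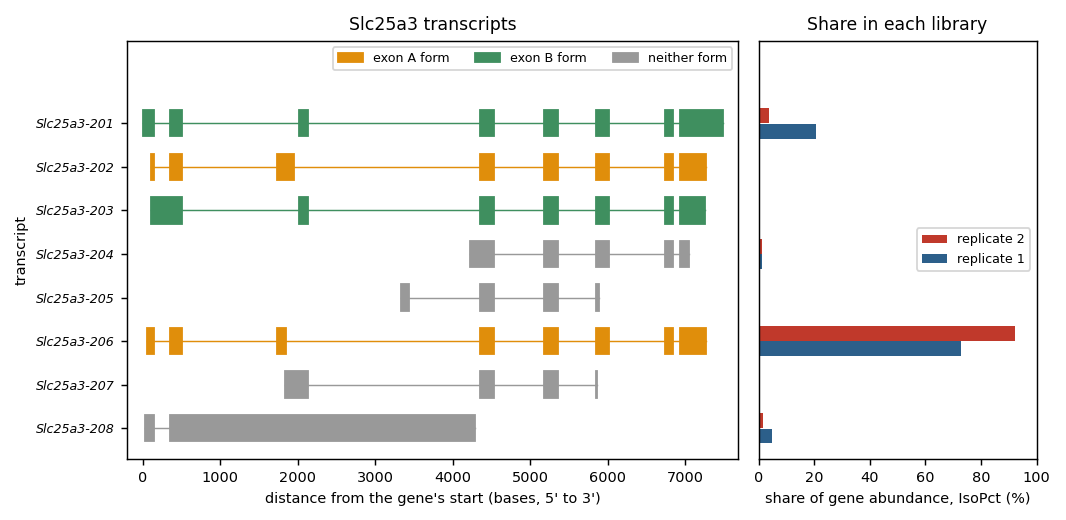
Left, exons (boxes) of the 8 annotated Slc25a3 transcripts by distance in bases from the start of the gene, coloured by form; right, the share of the gene's abundance (IsoPct, %) in replicate 2 (red, upper bar) and replicate 1 (blue, lower bar). The exon A transcript Slc25a3-206 has the longest bar in both libraries, 92.1% and 73.0%, and the exon B transcript Slc25a3-201 has 3.73% and 20.6%.

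Among the 12 highest carriers the leading transcript was the same in both libraries for 8, of which 2 (Slc25a34 and Slc25a46) have a single transcript in the tables. Slc25a4-201 held 90.8% in replicate 2 and 99.9% in replicate 1, Slc25a11-201 held 98.1% and 100%, and Slc25a5-201 held 98.4% and 98.1%. Slc25a20-201 held 99.6% and 99.7%, and Slc25a23-201 held 59.9% and 85.1%. For the ADP/ATP, oxoglutarate and acylcarnitine carriers, then, 1 coding transcript accounted for nearly all of the gene in each library.

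For the other 4 the leading transcript differed. In Slc25a12, the transcript Slc25a12-207, annotated as subject to nonsense-mediated decay, held 81.8% in replicate 2 and 0% in replicate 1, and the coding Slc25a12-206 held 16.1% and 96.3%. The effective length of the gene was thus 2802 bases in replicate 2 and 5947 in replicate 1, which enters its TPM, while its counts were 3162 in replicate 2 and 733 in replicate 1. In Slc25a13, Slc25a13-201 held 88.3% in replicate 2 and 35.4% in replicate 1, the rest of replicate 1 going to a transcript (ENSMUST00000177805) that the M21 annotation does not name. Slc25a39-201 held 87.8% in replicate 2 and 0% in replicate 1, but the value of replicate 1 rests on 12 counts. Slc25a36-202 held 60.0% and 27.5%. Transcripts of 1 gene share exons, so the split is an estimate from shared reads.

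The carriers were then compared between the libraries by count, with edgeR's two-sided exact binomial test over all genes with at least 20 counts, TMM scaling and Benjamini-Hochberg adjustment. This compares 2 libraries, not conditions, and covers counting error only. A gene was called at an adjusted p under 0.05 and at least 2-fold. Of 39 carriers tested, 17 were called higher in replicate 2 (43.6%, against 38.4% of all tested genes) and 8 lower (20.5%, against 27.2%). The remaining 14 were not called, and 8 carriers had too few counts to be tested. The median log2 ratio of replicate 2 over replicate 1 was 0.69 for the carriers and 0.21 for all tested genes. Setting the carriers at 0 counts in replicate 1 to their lower bound could not change the carriers' median, since each bound lies above it. These shares lie near the background, in which 65.6% of all tested genes were called in one direction or the other.

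With 0.5 counts added, the 4 carriers with the largest ratio in favour of replicate 2 were Slc25a10, Slc25a29, Slc25a28 and Slc25a39. The order among the highest depends on that choice: with 2 counts added, the log2 ratio was 5.28 for Slc25a39, 5.26 for Slc25a34, 4.97 for Slc25a10, 4.83 for Slc25a28 and 4.59 for Slc25a29. Against the 3 counts that a 0 allows in replicate 1, Slc25a10 was at least 20.7-fold higher and Slc25a29 at least 15.8-fold higher. Slc25a28 had 313 counts in replicate 2 and 2 in replicate 1, a 56.5-fold scaled ratio with a wide exact binomial 95% interval of 15.5 to 469. Slc25a39 had 1500 counts in replicate 2 and 12 in replicate 1, 45.1-fold (25.8 to 87.5). Slc25a34 had 41.0-fold (28.5 to 61.3). All 5 have transcripts rich in GC, from 58.0% in Slc25a34 to 60.9% in Slc25a28.

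The 4 carriers with the lowest ratio were Slc25a40, Slc25a46, Slc25a32 and Slc25a36. Slc25a40, a glutathione carrier like Slc25a39, had 155 counts in replicate 2 and 289 in replicate 1, a log2 ratio of −2.37. Slc25a46 had 1311 counts in replicate 2 and 2265 in replicate 1 (−2.26). The log2 ratio of Slc25a32 was −1.92 and that of Slc25a36 was −1.90. Their GC content ran from 39.3% in Slc25a40 to 41.2% in Slc25a32. Among the most abundant carriers, Slc25a4 was called higher in replicate 2 (log2 ratio 1.35) and so was Slc25a11 (2.23), whereas Slc25a3 (−0.15), Slc25a5 (0.05) and Slc25a20 (−0.18) were not called.

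The ratio of a carrier between the libraries followed the GC content of its transcripts closely. Across the 39 tested carriers, GC content and log2 ratio had a Pearson r of 0.93 and a Spearman rho of 0.95, and across 13155 tested genes with a GC value the coefficients were 0.85 and 0.90, as descriptions over genes that share both libraries. Carriers called higher in replicate 2 had 51.9% to 60.9% GC (median 56.6%), those called lower had 39.3% to 46.5% (median 42.0%), and those not called lay between, at 45.1% to 53.8% (median 49.3%). The carriers called in opposite directions thus did not overlap in GC content, but this cannot be read as particular to the carriers. The same trend held over all tested genes grouped by GC content. Their median log2 ratio was −1.11 in the group at 44.85% GC and 1.02 in the group at 51.74%. The overlap in GC content of all genes called in opposite directions was not counted.

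With the median ratio of genes of like GC content subtracted, 3 carriers were called higher in replicate 2 and 1 lower, against 10.2% and 10.8% of all genes. The 3 were Slc25a45 (log2 ratio 3.64), Slc25a30, a carrier related to the uncoupling proteins (1.82), and Slc25a34 (1.13). The 1 called lower was Slc25a23 (−1.03), which without that step was called higher, with 2.45. Slc25a45 and Slc25a34 were called in the same direction by both analyses. Slc25a45 had 0 counts in replicate 1, so its fitted ratio depends on the counts added, and before the GC step it was at least 6.38-fold higher in replicate 2. Slc25a30 had 83 counts in replicate 2 and 16 in replicate 1, so at 45.4% GC it stood above genes of like composition.

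**Figure D3:**
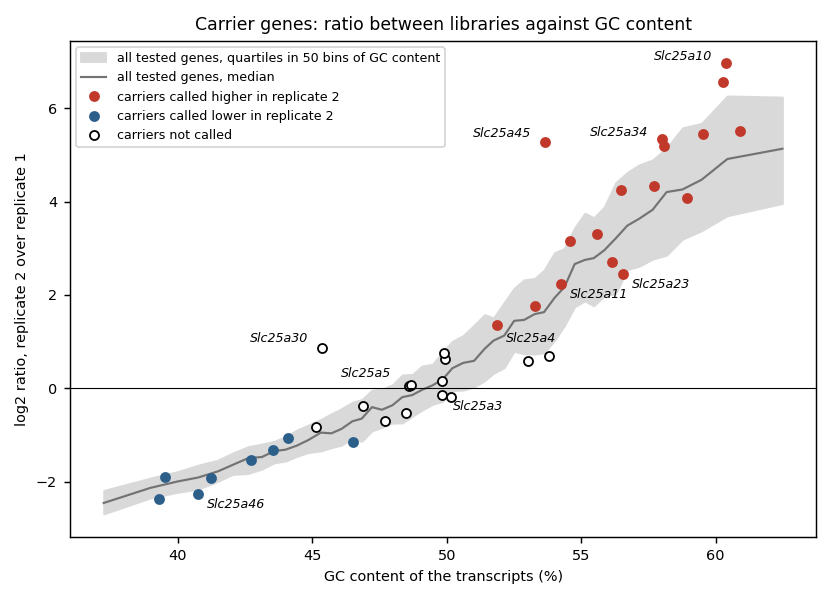
Log2 ratio of replicate 2 over replicate 1 against the GC content (%) of the transcripts for the 39 tested carriers (points), over the median (line) and quartiles (band) of all tested genes in 50 bins. Carriers called higher (red) lie at 51.9% GC and above and those called lower (blue) at 46.5% and below, and Slc25a45 and Slc25a30 stand well above the band. Slc25a10, Slc25a29, Slc25a45 and Slc25a47 had 0 counts in replicate 1, so their height depends on the 0.5 counts added.

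Related carriers were also compared within each library. The share taken by mitochondrial RNA cancels in a ratio of TPM, but not fully once 0.1 TPM is added, which weighs more on low carriers in replicate 1. Of 16 pairs, 8 had the same sign in both libraries and 8 did not, in log2 of (TPM + 0.1). Slc25a4 exceeded Slc25a5 in both, 10.4-fold in replicate 2 against 4.06-fold in replicate 1 (mean of the log2 ratios 2.70 ± 0.96, SD, n = 2). Slc25a4 exceeded the germ cell form Slc25a31 by log2 ratios of 12.42 in replicate 2 and 9.93 in replicate 1, on 7 and 3 counts of Slc25a31. Pseudogenes nearly identical to Slc25a5 took almost no reads: Gm5560, 98.3% identical, had 2.88 expected counts in replicate 2 and 0 in replicate 1.

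The other pairs with a stable order were led by one member in each library. Folds in these sentences are of counts per effective length. Slc25a11 exceeded Slc25a10 48.9-fold in replicate 2 (exact binomial 95% interval 42.0 to 57.2) and at least 108-fold in replicate 1. Slc25a20 exceeded Slc25a29 18.7-fold in replicate 2 and at least 182-fold in replicate 1. Slc25a22 exceeded Slc25a18, which was without counts, at least 139-fold in replicate 2 and at least 8.67-fold in replicate 1. The bound in replicate 1 rests on 11 counts and on an effective length of 498.9 bases for Slc25a22, which was 1825.1 in replicate 2. Of the glutamate carriers, therefore, Slc25a22 was the one found in these libraries. Among calcium-regulated ATP-Mg/phosphate carriers, Slc25a23 exceeded Slc25a25 8.52-fold in replicate 2, against 13.3-fold (5.42 to 42.3) in replicate 1 on 5 counts of Slc25a25. In log2 of (TPM + 0.1) that ratio was 3.05 in replicate 2 and 2.40 in replicate 1, so the library with the larger ratio depended on the measure. By posterior mean TPM the lead of Slc25a23 was smaller, with 24.39 against 5.35 in replicate 2 and only 0.92 against 0.75 in replicate 1. Slc25a36 exceeded Slc25a33, the other pyrimidine nucleotide carrier, with log2 ratios of 1.25 and 3.85. Slc25a15 exceeded Slc25a2, with 4.96 in replicate 2 and 3.40 in replicate 1.

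In TPM, the order of 8 pairs differed between the libraries, in 2 of them within counting error of a ratio of 1 in replicate 1. The log2 ratio of Slc25a39 over Slc25a40, the glutathione carriers, was 4.06 in replicate 2 and −2.30 in replicate 1. That of Slc25a28 over Slc25a37, the mitoferrins, was 0.98 in replicate 2 and −3.84 in replicate 1. That of Slc25a12 over Slc25a13 was 0.64 in replicate 2 and −2.46 in replicate 1. So by gene TPM, which glutathione carrier, mitoferrin or aspartate/glutamate carrier was the higher one was not the same in the 2 libraries. For Slc25a12, 81.8% of the TPM of replicate 2 was the nonsense-mediated decay transcript Slc25a12-207, and 16.1% the coding Slc25a12-206. In replicate 1, 64.6% of Slc25a13 was the transcript that the annotation does not name. The aspartate/glutamate carrier switch therefore cannot be read as one of coding RNA, and coding transcripts alone were not compared. Slc25a42 over Slc25a16, a gene linked to coenzyme A, gave 1.25 and −2.60. Slc25a25 over Slc25a24 gave 0.46 and −3.29, and Slc25a34 over Slc25a35 gave 4.34 and −0.41, the second being 0.706-fold per length with an interval of 0.412 to 1.21. Slc25a30 over Slc25a14, both related to uncoupling proteins, gave 1.36 and −0.07, the second being 0.954-fold (0.416 to 2.27). Slc25a3 over Slc25a4 gave −1.16 and 0.23.

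GC content moved with the pair ratios too, which is not separate from the trend above, since the pairs are made of the same carriers. In log2 of (TPM + 0.1), in 14 of the 16 pairs the ratio was higher in replicate 2 where the first gene had the higher GC content and lower where it had the lower, the exceptions being Slc25a30 over Slc25a14 and Slc25a15 over Slc25a2. By counts per length Slc25a23 over Slc25a25 went against this too. Once the GC trend was taken out of replicate 1, 12 pairs had the same sign in both libraries. That trend was estimated from the same 2 libraries, so the step draws replicate 1 toward replicate 2 by construction. The ratio of Slc25a39 over Slc25a40 was then 3.99 in replicate 1, beside 4.06 in replicate 2, and that of Slc25a3 over Slc25a4 was −0.60, beside −1.16. Other pairs moved further apart. Slc25a11 over Slc25a10 went from 6.80 to 8.96 in replicate 1, beside 5.58 in replicate 2. Slc25a10 had 0 counts in replicate 1, so the step scaled Slc25a11 alone and this rise was fixed in advance. Slc25a29 and Slc25a18, also without counts in replicate 1, could not be scaled in their pairs either. Slc25a23 over Slc25a25 went from 2.40 to 4.13, beside 3.05. The 4 pairs that still differed in sign were Slc25a12 over Slc25a13, Slc25a28 over Slc25a37, Slc25a25 over Slc25a24 and Slc25a30 over Slc25a14.

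**Figure D4:**
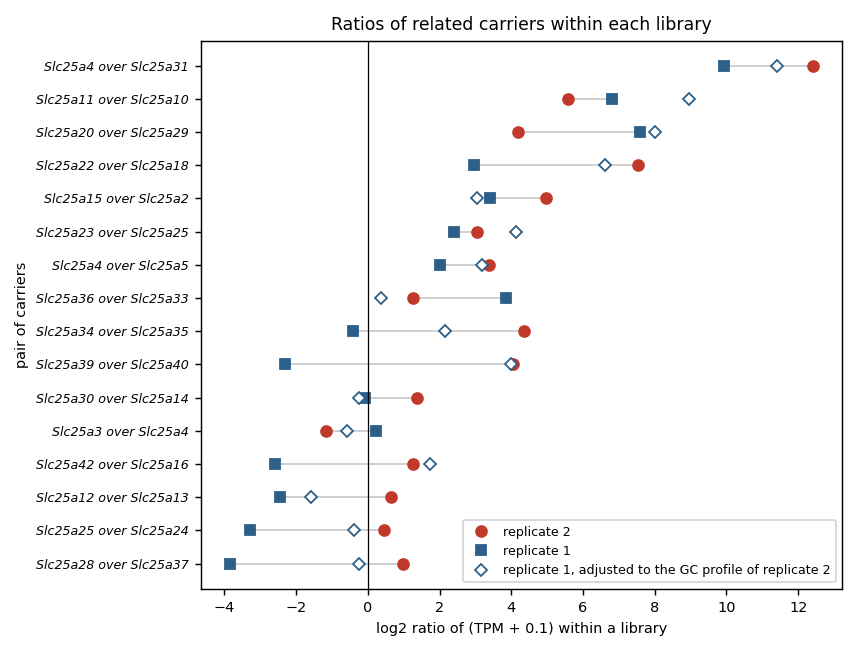
Log2 ratio of (TPM + 0.1) of the first over the second carrier of 16 pairs in replicate 2 (red circles), in replicate 1 (blue squares) and in replicate 1 once its GC trend relative to replicate 2 was taken out (open diamonds). 8 pairs lie on the same side of 0 in both libraries and 12 do so after adjustment, as for Slc25a39 over Slc25a40, where 3.99 meets 4.06. The adjustment was estimated from the same 2 libraries, and some pairs moved further apart. It cannot scale a carrier with 0 counts in replicate 1, such as Slc25a10.

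Genes that work beside the carriers were also called in both directions. Of 35 such genes, all tested, 13 were called higher in replicate 2 and 7 lower, where 38.4% and 27.2% of all tested genes were, and their median log2 ratio was 0.53. These shares lie near the background. Of 5 proteins of the same family with other symbols, 3 were called higher and 0 lower. Mtch2, an outer membrane member, had 86.6 TPM in replicate 2 and 56.0 in replicate 1, Mtch1 had 53.5 and 0.76, and Ucp2, an uncoupling protein, had 38.4 and 0.32. The brown fat uncoupling protein Ucp1 had 13.0 TPM in replicate 2 and 1.52 in replicate 1. The 4 brown fat markers, Ucp1 among them, summed to 40.4 and 3.43 TPM, with Adipoq at 8.29 and 1.26, and the part of fat in these values was not tested.

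Of 15 genes of the machinery that imports carriers, 11 had at least 1 TPM in both libraries, and 6 were called higher in replicate 2 and 2 lower, beside the background of 38.4% and 27.2%. The 4 below 1 TPM in replicate 1 were Timm13, with 27.0 TPM in replicate 2 and 0 counts in replicate 1, Tomm40, the channel of the outer membrane, with 28.3 and 0.02, Timm10 with 44.1 and 0.25, and Timm22, the inner membrane insertase, with 10.9 and 0.45. Timm8b, a small chaperone of the intermembrane space, had 138 TPM in replicate 2 and 15.8 in replicate 1. Tomm5 and Tomm22, subunits of the outer membrane import channel complex, had 100.3 and 17.0 TPM and 46.6 and 19.6 TPM. Of 12 other inner membrane transport genes, 4 were called higher and 4 lower, beside the same background. The pyruvate carrier subunits Mpc1, with 394 TPM in replicate 2 and 194 in replicate 1, and Mpc2, with 232 and 187, were in the range of the leading carriers. In replicate 2 both were below Slc25a4 and Slc25a3 and Mpc2 was also below Slc25a11. In replicate 1 both were above every SLC25 carrier, but only narrowly above Slc25a3, which had 184 TPM there. That difference was not tested. Of the 3 outer membrane pores 0 were called higher and 1 lower, and Vdac1, through which ATP and ADP cross the outer membrane, had 374 TPM in replicate 2 and 80.8 in replicate 1.

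Reads of overlapping genes on the opposite strand may enter a few of these values, since whether counting used strand is not stated in the sources. Slc25a35 shares 1151 of 3677 exonic bases with Rangrf, which had 526 counts in replicate 2 and 32 in replicate 1, so the level of Slc25a35 is uncertain. Slc25a11 shares 189 of 2120 bases with Rnf167, which had 778 and 97 counts, beside 7133 and 547 of Slc25a11. Slc25a25 shares 379 of 7862 bases with Naif1, which had 81 and 3 counts, beside 149 and 5 of Slc25a25. Slc25a26 shares 144 of 4807 bases with Lrig1, which had 789 and 71 counts, beside 377 and 80 of Slc25a26.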

How the data were processed

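Poly(A) RNA of 1 mouse heart was measured in 2 libraries. Expected counts, TPM and FPKM per gene and transcript, and the percent of a gene's abundance per transcript, are as the authors deposited them, for assembly mm10 with annotation M4 per the deposited file descriptions. FPKM was not used. The programs, and whether counting used strand, are not stated in the sources used here. Symbols, coordinates (1-based) and sequences come from GENCODE M21 of GRCm38, the same assembly.

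Expected counts were rounded to whole numbers and tested with edgeR 4.0.16 (exact binomial, TMM) in R 4.3.3, over genes with at least 20 counts in all. Calls needed an adjusted p under 0.05 and 2-fold, and 0.5 counts were added for log2 ratios. The calling step was tested on simulated data. Depth was 19685821 counts in replicate 2 and 22775991 in replicate 1. Exact intervals (95%) and the 3 counts that a 0 allows cover counting error alone, as reads may repeat 1 molecule. Copies of mitochondrial genes were the 11 nuclear genes that blastn 2.17.0 matched at 95% identity or more along 90% or more of the gene. GC content per gene is weighted over its transcripts by TPM, and its trend was removed in 50 bins. Values within libraries used Python 3.11.15.

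Values are given for the 12 carriers of highest mean TPM, both genes of each pair, carriers without counts and the 4 called carriers of largest ratio in each direction, with other carriers chosen after their values were seen. Alternatives changed the scaling, the filter, the pseudocount, the estimate of abundance, the GC trend and the libraries used. The values of 1 carrier are not reported here, though it is in the counts. Members, lists and pairs were chosen with earlier results of these data known.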

Additional observations from a re-analysis of the deposited data

How the results depend on the processing

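The count of 18 carriers at 1 TPM or more in both libraries was 32 in nuclear TPM, 33 at a limit of 0.1 TPM and 8 at a limit of 5 TPM. With posterior mean TPM it was 22, and leaving out a library gave 18 to 38. The numbers of calls were close under DESeq2 1.42.0 size factors, nuclear totals, no filter, posterior counts and 2 added counts, with 17 or 18 carriers higher and 6 to 8 lower. With the GC trend removed they were 3 and 1, and the 13 and 7 partner genes became 7 and 2. That step also turned the log2 ratio of 6 called carriers, giving 0.092 for Slc25a36, −1.03 for Slc25a23, −0.50 for Slc25a42, 0.013 for Slc25a16, −0.17 for Slc25a1 and 0.25 for Slc25a53. Of carriers not called, Slc25a5 had −0.058 under DESeq2 size factors and Slc25a3 had 0.0053 without the filter. Relative to TMM, DESeq2 size factors moved the median log2 ratio of all genes by −0.11, nuclear totals by 0.14 and GC removal by −0.21. The cause was not tested. The mean exon A share of Slc25a3 was 84.5% to 86.9% under other estimates and 78.0% to 95.8% with a library left out. Calls between libraries cannot be made with a library left out. No paired analysis was possible because there is 1 group. With 1 heart and 2 libraries, the spread between mice was not measured, and a count of 0 allows up to 0.154 TPM (Slc25a41 in replicate 2).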
